A study of Mus musculus with 7 samples.

Results

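The genes described here encode nuclear receptors, the transcription factors that bind DNA directly and, in many members, switch activity when a small lipophilic ligand enters their binding pocket. They were chosen by name, as a list of 44 receptor genes, and every probe set whose single platform gene symbol is on the list was taken. Of the 44 genes, 42 were represented, by 111 of the 45101 probe sets and among 18193 genes in all; Nr1h2 and Nr2e3 were not analysed here. The mice were wild-type C57Bl/6J, described as young adults and aged 6 to 12 weeks. Both groups of cells were sorted from their bone marrow without CD45 (the pan-leukocyte antigen) and lineage markers. The first group was positive for CD54 and BP1 and negative for CD31, carries the label stromal and has 4 arrays, called BP1+ arrays 1 to 4. The other group lacked CD54 and bore CD31, carries the label endothelial and has 3 arrays, called CD31+ arrays 1 to 3. No treatment was given in the labels, and each array was hybridised with amplified RNA of 1800 to 10000 cells.

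Steroid hormone receptors such as those for oestrogen, glucocorticoid and mineralocorticoid wait in complexes with chaperones and bind DNA as homodimers once their hormone arrives. Thyroid hormone, retinoic acid, vitamin D, fatty acid and oxysterol receptors instead share the retinoid X receptors as partners, and unliganded receptors recruit corepressors in place of coactivators. Other members, such as the REV-ERB, testicular and COUP-TF receptors, act mainly as repressors. In marrow stroma, oestrogen, glucocorticoid and vitamin D act on bone and fat formation.

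Many receptors of these subfamilies recognise the hexamer AGGTCA, so the windows before the transcription starts of member genes were searched for it. Those of Nr1d2 and Rxra are shown as the genes higher on the BP1+ arrays that hold it, and that of Esr1 as the gene with the largest difference. Each is the 250 bases before a RefSeq start (build GRCm38.p6), written 5' to 3' on the gene's strand, with matches on either strand in capitals (TGACCT is the reverse strand).
Nr1d2: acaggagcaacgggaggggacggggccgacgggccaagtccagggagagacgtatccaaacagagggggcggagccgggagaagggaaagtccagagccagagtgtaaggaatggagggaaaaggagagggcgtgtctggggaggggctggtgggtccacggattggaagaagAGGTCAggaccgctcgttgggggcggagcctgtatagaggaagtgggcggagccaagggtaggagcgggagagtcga
Rxra: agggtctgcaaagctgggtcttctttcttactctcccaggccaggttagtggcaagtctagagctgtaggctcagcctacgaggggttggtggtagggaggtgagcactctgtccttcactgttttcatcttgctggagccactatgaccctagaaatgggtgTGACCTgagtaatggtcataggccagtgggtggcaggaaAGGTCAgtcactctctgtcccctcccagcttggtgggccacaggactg
Esr1: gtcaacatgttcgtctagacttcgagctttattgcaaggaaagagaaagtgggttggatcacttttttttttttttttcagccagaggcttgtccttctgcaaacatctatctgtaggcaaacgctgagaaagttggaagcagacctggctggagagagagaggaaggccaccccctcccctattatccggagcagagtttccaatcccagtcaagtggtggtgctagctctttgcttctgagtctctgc
The Nr1d2 window is chr14:18239107-18239356 on the minus strand and lies next to the gene, whose annotated span is 18204056 to 18239106. The Rxra window is chr2:27709042-27709291 on the plus strand, before the second of 2 starts and inside the annotated span of the gene (27676445 to 27763319). This Rxra window was shown because it held the most matches, while the window before the other Rxra start held no match. The Esr1 window is chr10:4611739-4611988 on the plus strand, before the first of 2 starts of a gene that spans 4611989 to 5005633. In Nr1d2 the match covers bases 77 to 72 before the start, and in Rxra the matches cover bases 87 to 82 and 48 to 43. The hexamer was found in the windows of 2 of 11 genes higher on the BP1+ arrays for which a window was listed, in 7 of the other 30 members, and in 15.8% of 27025 genes. A match of these letters is a description of the window only.

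Levels are on the log2 scale of the deposited table, and each difference is the BP1+ mean less the CD31+ mean. The brightest probe set on average stood for each gene. A gene entered the test when 3 or more arrays exceeded the 40th percentile of that array, a level between 5.48 and 5.79. It was called where the limma adjusted p was under 0.05 and the difference at least 1 on the log2 scale. Where the mean of either group fell under that percentile no fold is given, since such values sit at the floor. Over all 13995 genes tested, 4319 were called higher on the BP1+ arrays (30.9%) and 2252 on the CD31+ arrays (16.1%), 47% in all, and the median difference was 0.19. Of the receptor genes 34 were tested, and 13 were higher on the BP1+ arrays (38.2%) and 2 on the CD31+ arrays (5.88%). Their median difference was 0.46. The groups did not overlap in 26 of the 34 genes (76.5%), against 68.4% of all genes tested; the BP1+ arrays were the higher in 14 of these and the CD31+ arrays in 12, against 35.7% and 32.7% of all genes. The number of arrays limits the precision, and as the labels do not say whether replicates came from separate mice, each p measures the spread between these samples only.

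The genes of 3 antigens followed their gates, with Enpep (BP1) higher by 6.93, Icam1 (CD54) higher by 5.19 and Pecam1 (CD31) at -3.48. The gene of CD45, Ptprc, went against its gate: it lay at 9.36, 10.94 and 8.63 on the CD31+ arrays, all above the 40th percentile, and at 7.01, 7.42, 4.91 and 6.45 on the BP1+ arrays. Its difference was -3.20 (limma adjusted p = 0.00439), and -2.92 without a call under the hybridisation-control block described below (limma adjusted p = 0.0597). One endothelial marker gene, Cdh5, which encodes VE-cadherin, was weak on the CD31+ arrays, at 5.19 to 5.67, below each array's 40th percentile. The mean of 11 megakaryocyte and platelet markers lay at 12.92 to 13.28 on the CD31+ and 5.76 to 7.94 on the BP1+ arrays, all 11 being called toward the former. The mean of 12 pan-leukocyte markers lay at 10.32 to 11.03 and 6.10 to 7.83, with 10 called. Of the other blood cell lists, 7 of 12 neutrophil, 8 of 11 B-lineage, 7 of 10 monocyte and 4 of 8 erythroid markers tested were called toward the CD31+ arrays. Toward the BP1+ arrays 1 B-lineage and 2 monocyte markers were called. The neutrophil mean lay at 7.30 to 9.42 on the BP1+ and 8.86 to 11.85 on the CD31+ arrays. The monocyte mean lay at 7.10 to 8.08 and 7.98 to 9.29, so the groups overlapped in both. Vcam1 was counted in the monocyte list and also in the reticular stromal list below, so these lists are not independent. Of 18 pan-endothelial markers 12 were tested and 5 called toward the CD31+ arrays. Of those tested, 8 were higher on every CD31+ array and 1 on every BP1+ array, against 32.7% and 35.7% of all genes tested. The mean of all 18 lay at 7.18 to 7.29 on the CD31+ and 5.70 to 5.85 on the BP1+ arrays. Ppbp, a platelet chemokine gene, lay at 10.19 on BP1+ array 4 and 3.75 to 4.30 on the other BP1+ arrays. The mean of 14 reticular stromal markers lay at 12.99 to 13.11 on the BP1+ arrays and 6.38 to 7.38 on the CD31+ arrays. Apart from the neutrophil and monocyte lists, the marker means separated the same groups that are compared below. The part of these markers in the receptor differences was not tested. On these bulk samples fewer cells that express a gene and less RNA per cell cannot be told apart.

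**Figure D1:**
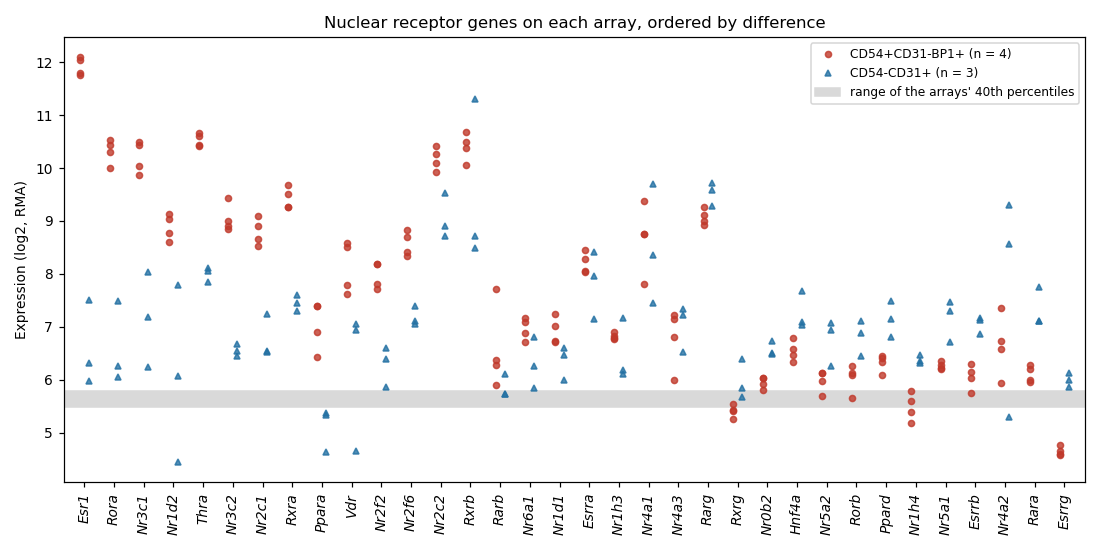
Level of each of the 34 tested receptor genes on every array (log2, RMA), ordered from the largest difference toward the BP1+ arrays (circles, 4 arrays) to the largest toward the CD31+ arrays (triangles, 3 arrays); the grey band spans the arrays' 40th percentiles, 5.48 to 5.79. Esr1, Rora, Nr3c1, Thra, Nr3c2 and Rxra show separate clouds with the BP1+ arrays above, whereas Nr4a1, Nr4a2 and Rxrb spread widely on the CD31+ arrays.

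Among the steroid receptors, the genes for the oestrogen, glucocorticoid and mineralocorticoid receptors were all higher on the BP1+ arrays, and Esr1 had the largest difference of the family. Esr1, which encodes oestrogen receptor alpha, lay at 11.80, 12.09, 11.75 and 12.05 on BP1+ arrays 1 to 4 and at 6.32, 7.50 and 5.98 on CD31+ arrays 1 to 3. The BP1+ arrays sat within a narrow range far above all CD31+ arrays, of which array 2 was the highest. The means were 11.92 ± 0.17 (SD, n = 4) and 6.60 ± 0.80 (n = 3), a 40.1-fold difference with a limma adjusted p of 5.77e-06. A second probe set, 1435663_at, gave 4.05, while 1421244_at lay below the filter on both groups (4.59 and 5.13). Esr2, which encodes oestrogen receptor beta, was also below the filter, at 5.09 to 5.39 on the BP1+ and 5.62 to 6.19 on the CD31+ arrays.

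Nr3c1 encodes the glucocorticoid receptor, which binds cortisol and corticosterone and acts in nearly every cell type. It lay at 9.87, 10.43, 10.04 and 10.49 on the BP1+ arrays and at 6.23, 8.03 and 7.18 on the CD31+ arrays. The groups were apart by more than their spread, although the CD31+ arrays covered nearly 2 log2 units. The difference was 3.06 (SE 0.40, 8.35-fold, limma adjusted p = 3.19e-04). Of its 6 probe sets, 3 were called in the same direction (2.30 to 3.06), 2 passed the filter without a call (-0.84 and -0.13) and 1 lay below the filter.

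Nr3c2 encodes the mineralocorticoid receptor, which binds aldosterone and also glucocorticoids. Its values were 8.84, 8.99, 8.90 and 9.43 on the BP1+ arrays and 6.67, 6.45 and 6.53 on the CD31+ arrays, tight within both groups and well apart. The difference was 2.49 (SE 0.20, 5.62-fold, limma adjusted p = 1.90e-05). Pgr, the progesterone receptor gene, lay between 3.70 and 5.09 on all arrays, below the filter with all 3 probe sets.

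The oestrogen-related receptors, orphan members that resemble the oestrogen receptor and drive genes of energy metabolism, went differently. Esrra lay at 8.05, 8.45, 8.28 and 8.03 on the BP1+ arrays and at 7.15, 7.96 and 8.42 on the CD31+ arrays. The groups overlapped, and the difference of 0.36 was not called (limma adjusted p = 0.303); it was of other sign after a second quantile normalization (-0.22) and cyclic loess (-0.25), and it was 1.05 and called toward the BP1+ arrays with the hybridisation-control block (limma adjusted p = 0.0203). Esrrg was called higher on the CD31+ arrays, at 6.13, 5.98 and 5.86 against 4.57, 4.77, 4.66 and 4.60. All BP1+ values lay below the 40th percentile and the CD31+ values just above it, so this is a difference at the floor of the arrays (-1.34, limma adjusted p = 2.17e-04). It was short of the required difference after cyclic loess (-0.81). Esrrb stood at -0.99, at the edge of the required difference (limma adjusted p = 0.00261), and a dimmer probe set, 1422986_at, was called at -1.63. Esrrb was called toward the CD31+ arrays in 9 of 18 alternatives, among them second quantile normalization (-1.19) and the fit without CD31+ array 2 (-1.09).

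Among the receptors that pair with the retinoid X receptors, the thyroid hormone receptor gene Thra and the partner gene Rxra were higher on the BP1+ arrays. Thra, the main thyroid hormone receptor of bone, lay at 10.61, 10.65, 10.44 and 10.43 against 7.85, 8.12 and 8.05. Each group was compact and the groups were far apart. The difference was 2.53 (SE 0.17, 5.77-fold, limma adjusted p = 6.45e-06), and all 3 probe sets of the gene were called (2.21 to 2.53). Thrb, the other thyroid hormone receptor gene, was below the filter, with 4.41 to 4.82 on the BP1+ and 5.75 to 5.78 on the CD31+ arrays.

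Rxra, which encodes the alpha form of the common partner, lay at 9.27, 9.68, 9.51 and 9.26 on the BP1+ arrays and at 7.60, 7.45 and 7.29 on the CD31+ arrays. Both groups were compact, and the difference was 1.98 (SE 0.19, 3.96-fold, limma adjusted p = 4.65e-05). The call rests on probe set 1454773_at, since its other 2 probe sets gave -0.46 and -0.59, and their mean with it gave 0.31 (limma adjusted p = 0.104). Across the alternatives for Rxra the adjusted p lay between 4.18e-05 and 0.104. Rxrb, the beta form, lay at 10.38, 10.68, 10.48 and 10.06 on the BP1+ arrays and at 8.72, 11.31 and 8.49 on the CD31+ arrays. CD31+ array 2 was the highest of all 7 and the other CD31+ arrays were the lowest, and the difference of 0.90 was not called (limma adjusted p = 0.224). Without CD31+ array 2 it was 1.80 and called (limma adjusted p = 2.74e-04, with a range over all alternatives from 2.74e-04 to 0.594). Rxrg, the gamma form, lay near the 40th percentile, at 5.25 to 5.53 and 5.67 to 6.39.

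The retinoic acid receptors did not follow Rxra. Rara, the alpha form, was called higher on the CD31+ arrays, at 7.75, 7.10 and 7.10 against 5.96, 6.27, 6.00 and 6.20. The groups did not overlap, and the difference was -1.21 (SE 0.22, 2.32-fold, limma adjusted p = 0.00173). Without CD31+ array 1, the highest, it was -0.999 and just short of the required size. Rarg, the gamma form, was at 8.92 to 9.26 on the BP1+ and 9.28 to 9.71 on the CD31+ arrays, a difference of -0.45 that was not called (limma adjusted p = 0.0555). After cyclic loess Rarg was -1.04 and called (limma adjusted p = 0.00501). Rarb, itself a target of retinoic acid, lay at 6.27, 7.72, 5.91 and 6.38 against 6.10, 5.74 and 5.73. BP1+ array 2 stood above the rest, the groups overlapped, and the difference of 0.71 was not called (limma adjusted p = 0.146).

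Vdr encodes the vitamin D receptor, which controls calcium balance and, in stromal and bone-forming cells, the osteoclast factor RANKL. It lay at 8.50, 8.58, 7.78 and 7.62 on the BP1+ arrays and at 6.94, 7.05 and 4.65 on the CD31+ arrays. All BP1+ arrays were above the CD31+ arrays, with CD31+ array 3 far below its group. The difference was 1.91 (SE 0.58, 3.75-fold, limma adjusted p = 0.0188), and the second probe set of the gene gave 3.74. It was 1.13 and still called without CD31+ array 3. The call was lost without BP1+ array 1 (1.78, limma adjusted p = 0.0530) and after a second quantile normalization (1.61, limma adjusted p = 0.0634). It was also lost with a block for the hybridisation controls (1.18, limma adjusted p = 0.261), and over all alternatives the adjusted p lay between 3.26e-04 and 0.261. That split sets CD31+ arrays 2 and 3, with spiked-in controls at 11.33 and 11.37, apart from the other 5 arrays at 9.51 to 9.75, so that CD31+ array 1 alone stands for its group. The xenobiotic receptor genes Nr1i2 and Nr1i3 lay between 3.69 and 4.81 on all 7 arrays, below the filter.

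Of the fatty acid and sterol receptors, Ppara was called. Ppara, which turns on fatty acid oxidation, lay at 6.44, 6.90, 7.39 and 7.39 on the BP1+ arrays and at 5.34, 4.63 and 5.37 on the CD31+ arrays. The BP1+ arrays were all higher and the CD31+ mean was below the 40th percentile (1.91, SE 0.30, limma adjusted p = 9.65e-04). Its other 2 probe sets gave -0.08 and 0.37, and the mean of the 3 was short of the required difference (0.73). Ppard leaned toward the CD31+ arrays, at 6.81 to 7.48 against 6.08 to 6.45 (-0.83, limma adjusted p = 0.00874), short of the required difference. After a second quantile normalization Ppard was -1.10 and called (limma adjusted p = 0.00575), while its other probe set gave 0.06. Nr1h3, which encodes the oxysterol receptor LXR alpha, lay at 6.90, 6.76, 6.80 and 6.82 against 7.16, 6.17 and 6.10. Its CD31+ array 1 was the highest of all and the other CD31+ arrays the lowest, and the difference of 0.34 was not called (limma adjusted p = 0.285); it was -0.34 with the hybridisation-control block. The bile acid receptor gene Nr1h4 lay near the 40th percentile, at 5.18 to 5.79 and 6.31 to 6.46.

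The REV-ERB and ROR receptors form the accessory loop of the circadian clock, in which RORs activate and REV-ERBs repress the same elements. Rora had the second largest difference of the family, at 10.31, 10.44, 10.54 and 10.00 on the BP1+ arrays against 6.26, 7.49 and 6.06. The groups were far apart, with CD31+ array 2 again the highest of its group (3.72, SE 0.35, 13.2-fold, limma adjusted p = 4.72e-05). Of 9 probe sets of Rora, 6 were called in this direction (1.05 to 3.72), 2 passed the filter without a call and 1 lay below it. Nr1d2, which encodes REV-ERB beta, lay at 9.04, 8.76, 8.60 and 9.13 against 6.07, 7.78 and 4.44. The CD31+ arrays differed by more than 3 log2 units among themselves but all lay below the BP1+ arrays. The difference was 2.78 (SE 0.66, 6.88-fold, limma adjusted p = 0.00650), and the hybridisation-control block gave 2.81 without a call (limma adjusted p = 0.0588, in a range over all alternatives from 1.92e-04 to 0.0588). The other probe set of Nr1d2, 1416959_at, lay below the filter on both groups (4.14 and 4.56). With the mean of both probe sets Nr1d2 was 1.18 and still called. Nr1d1, which encodes REV-ERB alpha, was 6.71 to 7.24 on the BP1+ and 6.00 to 6.59 on the CD31+ arrays, a difference of 0.57 that was not called (limma adjusted p = 0.0503). Rorb leaned the other way by less than the required size (-0.78, limma adjusted p = 0.0170).

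Orphan receptors of the testicular and COUP-TF groups, which repress many genes through sites shared with other receptors, were higher on the BP1+ arrays wherever they were tested. Nr2c1 lay at 8.53, 8.91, 8.66 and 9.10 against 6.53, 7.24 and 6.55 (2.03, SE 0.24, limma adjusted p = 2.02e-04), and 4 of its 5 probe sets were called. Nr2c2 lay at 10.09, 10.26, 9.93 and 10.41 against 8.71, 9.52 and 8.90, and CD31+ array 2 came within 0.5 log2 units of the BP1+ arrays. Its difference of 1.13 was near the required size (limma adjusted p = 0.00395) and fell short of it without CD31+ array 1 (0.96), after a second quantile normalization (0.61), after cyclic loess (0.61) and with the mean of its 6 probe sets (0.26). Nr2f2, which encodes COUP-TFII, a factor of venous endothelium and mesenchyme, lay at 7.71, 8.18, 8.19 and 7.80 on the BP1+ and 6.39, 5.86 and 6.59 on the CD31+ arrays. The groups did not overlap (1.69, SE 0.24, 3.23-fold, limma adjusted p = 4.94e-04). A further 1 of its 6 probe sets was called, 1 passed the filter without a call and 3 lay below it, and their mean with it gave 0.64. Nr2f6 lay at 8.41, 8.83, 8.70 and 8.33 against 7.05, 7.11 and 7.39 (1.39, limma adjusted p = 5.20e-04), and both of its probe sets were called. After a second quantile normalization (0.83) and cyclic loess (0.79) Nr2f6 was short of the required difference. Nr2f1 passed the 40th percentile on only 2 arrays and was not tested, at 5.30, 6.01, 5.98 and 5.01 on the BP1+ and 3.86, 4.15 and 4.15 on the CD31+ arrays. It was the only one of the 8 untested members that lay higher on the BP1+ arrays.

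The NR4A receptors, which have no known ligand pocket and are induced within minutes by many stimuli, overlapped between the groups with the probe set that stood for each gene. Nr4a1 (NUR77) lay at 9.37, 8.75, 8.76 and 7.81 on the BP1+ arrays and at 8.36, 9.71 and 7.44 on the CD31+ arrays. Its difference of 0.17 was not called (limma adjusted p = 0.793), and it was -0.43 after a second quantile normalization and -0.49 after cyclic loess. Nr4a2 (NURR1) lay at 6.73, 7.36, 6.59 and 5.93 against 5.30, 8.56 and 9.30, so that CD31+ array 1 was the lowest of all 7 arrays and the other CD31+ arrays were the highest. The difference was -1.07 and not called (limma adjusted p = 0.290). It was -2.28 and called without CD31+ array 1 (limma adjusted p = 0.00341), and 1.35 with the hybridisation-control block (limma adjusted p = 0.0673). Over all alternatives for Nr4a2 the adjusted p lay between 0.00341 and 0.773. Nr4a3 (NOR1) lay at 6.00 to 7.22 on the BP1+ arrays and 6.53 to 7.34 on the CD31+ arrays. Dimmer probe sets did not all overlap: 2 further probe sets of Nr4a2 (-0.95 and -0.74) and 1 of Nr4a3 (-0.83) lay higher on every CD31+ array, with differences under the required size.

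Receptors known mainly from liver, gonads, adrenal gland, embryo or retina lay low. Hnf4a, a master regulator of hepatocytes, lay at 6.33 to 6.78 on the BP1+ and 7.04 to 7.67 on the CD31+ arrays (-0.72). Nr5a1, the steroidogenic factor, and Nr5a2, the liver receptor homologue, stood at -0.89 and -0.78. Without CD31+ array 1 both were called, at -1.11 and -1.02, and Nr5a1 also after a second quantile normalization (-1.10). Nr0b2, which encodes SHP, a receptor without a DNA-binding domain, stood at -0.62. These 4 genes had adjusted p-values from 0.00704 to 0.0204 (limma) and differences under the required size. Nr0b1 (DAX1) and Nr2e1 (tailless) lay below the filter, at 3.85 to 4.07 and 3.70 to 3.91 on the BP1+ arrays and 5.13 to 5.44 and 4.85 to 5.28 on the CD31+ arrays. Nr6a1, the germ cell nuclear factor, was 6.70 to 7.17 on the BP1+ and 5.84 to 6.81 on the CD31+ arrays (0.66, limma adjusted p = 0.0473), with 1 overlapping array. Another probe set of Nr6a1, 1428826_at, was called at 1.81, and a further one that passed the filter gave -0.61.

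**Figure D2:**
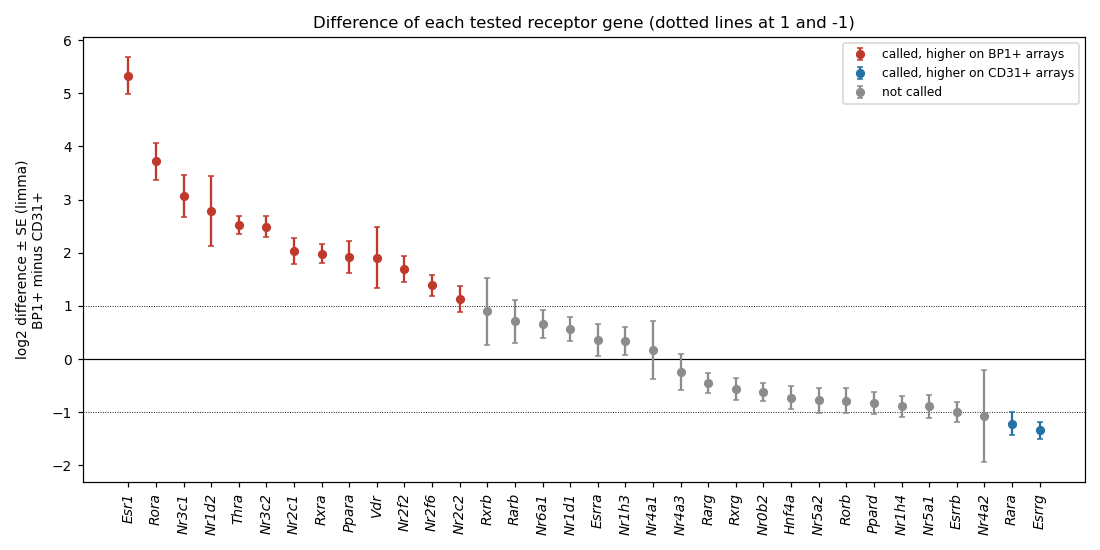
Difference of each of the 34 tested genes (log2, BP1+ minus CD31+, with the limma standard error), with called genes coloured and dotted lines at the required difference of 1. Esr1 at 5.33 and Rora at 3.72 stand highest, 13 genes are called toward the BP1+ arrays, and Rara and Esrrg are called toward the CD31+ arrays.

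Among all genes and among the receptor genes, called or not, the sign of the difference went with the mean level of the gene. Of all genes whose mean over the 7 arrays was under 7, 81.6% lay lower on the BP1+ arrays, with a median difference of -0.59. Of the 25 receptor genes in that range 19 did, with a median of -0.71. From a mean of 7 upward the share of all genes was 32.6% and the median 0.71, while 2 of 17 receptor genes lay lower on the BP1+ arrays and the median was 1.91. Among the 19 tested receptor genes that were not called, 9 had an adjusted p under 0.05 and a difference below 0 that was smaller than 1, and 1 (Nr6a1) the same above 0. With the adjusted p alone as the criterion the receptor calls were 14 and 11 of 34, against 36.9% and 31.5% of all genes. For dim receptor genes a small lead of the CD31+ arrays was shared with most dim genes of the array.

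**Figure D3:**
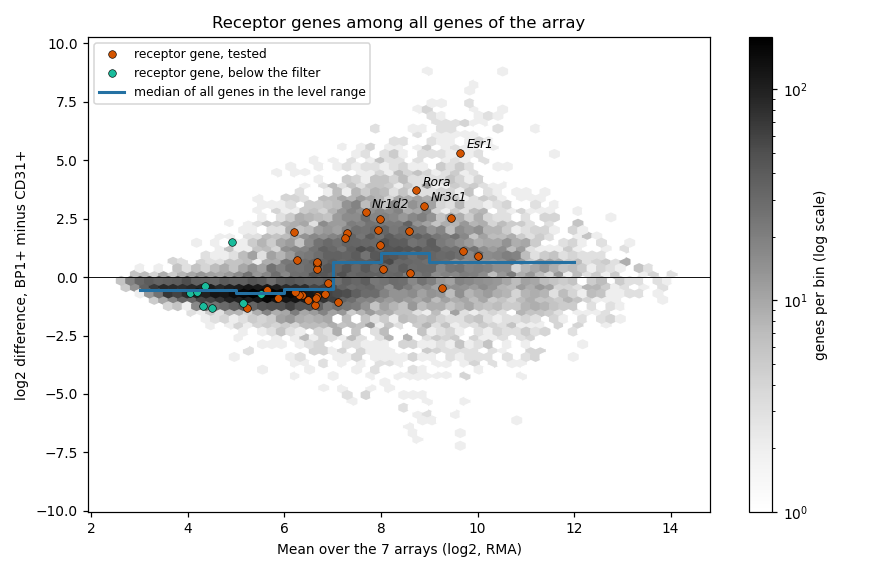
Difference against mean level for all genes (grey hexagons, darker for more genes on a log scale), with the 34 tested (orange) and 8 untested (green) receptor genes and, as a blue line, the median of all genes in each level range. The blue line runs below 0 under a level of 7 and above 0 from there on, and Esr1, Rora and Nr3c1 lie well above it.

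Probe sets of one receptor often gave different sizes and in some genes opposite signs, but were not called in opposite directions. Nr3c1 gave 3.06 and, with 1431378_at, -0.84 (limma adjusted p = 0.0160). Rxra gave 1.98 and, with 1430497_at, -0.59 (limma adjusted p = 0.0214). Both negative values were under the required size. Of the 111 probe sets, 76 passed the filter, of which 30 were called toward the BP1+ arrays (39.5%) and 3 toward the CD31+ arrays (3.95%). Over all 24519 probe sets that passed, the shares were 28.3% and 15%. In 27 genes there was more than 1 probe set, and 0 genes had probe sets called both ways. Of the 13 genes called toward the BP1+ arrays, 11 had at least 2 probe sets that passed, 8 had at least 2 that were called, and 5 (Thra, Vdr, Nr2c1, Nr2f6 and Esr1) had every one called.

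**Figure D4:**
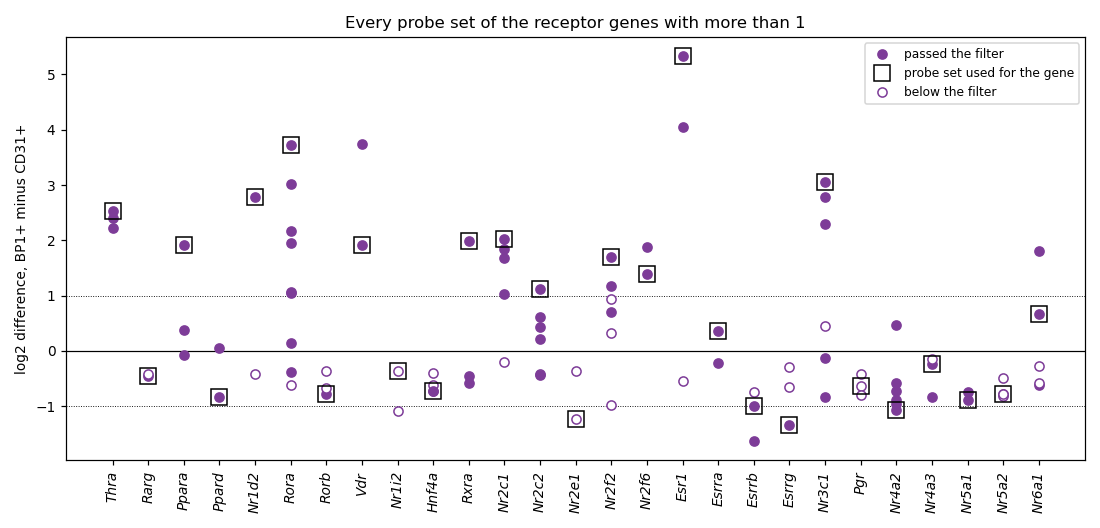
Difference (log2, BP1+ minus CD31+) of every probe set of the 27 receptor genes with more than 1, filled where the probe set passed the filter, open where it did not, and boxed where it stands for the gene. Rora has 6 called probe sets between 1.05 and 3.72, while the 2 unboxed probe sets of Rxra lie below 0.

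The genes that work with these receptors were read from 10 lists of cofactors, chaperones, ligand enzymes and target genes, which share some members. Together they held 115 distinct genes that were tested, of which 51 were higher on the BP1+ arrays and 12 on the CD31+ arrays. The shares over all genes tested, against which each list is to be read, were 30.9% and 16.1%. Of the genes named below, Pprc1, Sirt1, Pdk4, Ehhadh, Abca1, Rbp4, Npas2 and Crym had CD31+ means below the 40th percentile. Aldh1a1, Cyp26a1 and Cyp24a1 had such means on the BP1+ arrays. For all of these the lower group sat at the floor, which limits the sizes given. Of 16 coactivator genes, 9 were higher on the BP1+ (56.2%) and 3 on the CD31+ arrays (18.8%), with a median of 1.15. Ncoa7, a coactivator of the oestrogen receptor, was higher by 3.07 (9.14 ± 0.45, n = 4, against 6.08 ± 0.39, n = 3, limma adjusted p = 5.65e-05), and Ncoa6 and Nsd1 by 2.59 and 1.56. Pprc1, a relative of PGC-1, was higher by 2.83. The p160 coactivator genes Ncoa1 (SRC-1) and Ncoa2 (TIF2) stood at -1.83 and -1.39. The call of Ncoa2 was lost with the hybridisation-control block (-1.14, limma adjusted p = 0.0648) and with the mean of its probe sets (-0.78). Nsd1 fell short with the mean of its probe sets (0.82) and under both other normalizations (0.996 and 0.93). Under a second quantile normalization and under cyclic loess 4 coactivators were called toward the BP1+ arrays, and without CD31+ array 1 it was 5.

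Of 11 corepressor genes 3 were higher on the BP1+ arrays (27.3%, near the share of all genes) and 0 on the CD31+ arrays, with a median of 0.62. They were the deacetylase gene Sirt1 (2.55), Tbl1x (1.48), which bridges corepressor complexes, and Ctbp2 (1.30). Tbl1x and Ctbp2 fell short of the required difference after a second quantile normalization (0.84 and 0.72). Of 7 chaperone genes 3 were higher on the BP1+ arrays (42.9%), with a median of 0.92: Fkbp4, an immunophilin of steroid receptor complexes, by 2.50, Fkbp5, which restrains the glucocorticoid receptor, by 1.72 and the co-chaperone gene Stip1 by 1.05. The call of Stip1 was lost in 4 of 18 alternatives, among them without CD31+ array 3 (0.69). Fkbp4 gave 0.40 with the mean of its probe sets. Fkbp5 was 7.49, 9.35 and 6.51 on the CD31+ arrays, the second close to the BP1+ arrays (9.45 to 9.57). Its call was lost in 10 of 18 alternatives, among them leaving out any array other than CD31+ array 2, with adjusted p-values up to 0.104.

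Known glucocorticoid targets were higher on the BP1+ arrays in 9 of 16 genes (56.2%) and on the CD31+ arrays in 0, with a median of 1.60. Sgk1, a kinase gene that both corticoid receptors induce, lay at 11.84 ± 0.08 against 7.43 ± 1.82 (limma adjusted p = 0.00100). Pdk4, a kinase that spares glucose, was higher by 5.08 (limma adjusted p = 7.94e-06), the sulfotransferase gene Sult1a1 by 4.21 and the transcription factor gene Cebpd by 3.17. Of 14 PPAR targets 8 (57.1%) were higher on the BP1+ arrays and 0 on the CD31+ arrays, with a median of 1.13. They included the lipase inhibitor gene Angptl4 at 12.66 ± 0.16 against 7.20 ± 0.51 (limma adjusted p = 1.04e-06), Pdk4 again, and the fatty acid oxidation genes Ehhadh (3.20) and Hadhb (2.43). The call of Hadhb was lost with the hybridisation-control block (2.02, limma adjusted p = 0.104). With a second quantile normalization or cyclic loess 4 PPAR targets were called toward the BP1+ arrays. Neither list is specific to its receptor, as 1 gene can answer to several.

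Of 11 LXR targets 6 were higher on the BP1+ arrays (54.5%) and 1 on the CD31+ arrays (9.09%), with a median of 1.37. Apoe, the lipid carrier, lay at 13.40 ± 0.08 against 6.53 ± 1.08 (limma adjusted p = 5.07e-06), and the cholesterol exporter gene Abca1, the desaturase gene Scd2 and the transfer protein gene Pltp were higher by 3.50, 3.50 and 2.20. The exporter gene Abcg1 stood at -1.05. Its call was lost in 4 of 18 alternatives, among them without CD31+ array 2 (-0.81). Retinoid genes went both ways, with 4 of 12 higher on the BP1+ (33.3%) and 2 on the CD31+ arrays (16.7%), both near the shares of all genes, and a median of -0.15. The 2 retinaldehyde dehydrogenase genes of the list that were called, which make retinoic acid, took opposite sides. Aldh1a2 lay at 12.60 ± 0.11 on the BP1+ and 5.92 ± 0.20 on the CD31+ arrays (limma adjusted p = 1.25e-07), and Aldh1a1 at 3.76 to 5.97 and 10.90 to 11.14 (limma adjusted p = 1.78e-05). The carrier gene Rbp4 was higher on the BP1+ arrays by 4.76, Tgm2, a transglutaminase induced by retinoic acid, by 3.72 and Rarres2, which encodes chemerin, by 5.16, or 0.11 and uncalled with another probe set. Cyp26a1, which breaks retinoic acid down, stood at -1.16, with a BP1+ mean of 5.26, below the 40th percentile. Its call was lost in 3 of 17 alternatives, among them without CD31+ array 3 (-0.79).

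Clock genes were higher on the BP1+ arrays in 8 of 16 (50%) and on the CD31+ arrays in 1 (6.25%), with a median of 0.86. Npas2 and Clock, which encode alternative partners of BMAL1, were higher by 3.45 and 2.39 (limma adjusted p = 2.12e-06 and 9.59e-05), and the output genes Dbp and Nfil3 by 1.88 and 1.48. The casein kinase gene Csnk1e stood at -1.26. With a second quantile normalization or cyclic loess 4 clock genes were called toward the BP1+ arrays, and without CD31+ array 1 it was 5. Nfil3 was not called in any of these 3 settings (0.97, 0.85 and 0.91). The hour of collection is not given in the labels.

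Among enzymes of steroid metabolism 2 of 10 were higher on each side (20%), with a median of 0.02. Hsd17b11 and Hsd17b12, members of the hydroxysteroid dehydrogenase family, were higher on the BP1+ arrays by 2.23 and 1.89. With the mean of its probe sets Hsd17b11 was 0.90 and not called. Star, which moves cholesterol into mitochondria, stood at -1.96 (6.93 ± 0.30 against 8.89 ± 0.76, limma adjusted p = 0.00178), and Srd5a3 at -1.01, with its call lost in 8 of 18 alternatives. In the list of thyroid hormone and vitamin D handling 2 of 7 tested genes were higher on the BP1+ (28.6%) and 3 on the CD31+ arrays (42.9%), with a median of -0.58. Crym, which encodes a thyroid hormone binding protein, was higher on the BP1+ arrays by 3.31 and Klf9, a target of thyroid hormone and glucocorticoid, by 2.70. The transporter gene Slc16a10, which carries thyroid hormone and aromatic amino acids, stood at -2.86 (limma adjusted p = 1.65e-05). Cyp24a1 and Cyp27a1, hydroxylase genes of vitamin D, stood at -1.05 and -1.01, and their calls were lost in 5 of 16 and 7 of 17 alternatives. Both were dim, with means of 5.04 and 5.77 on the BP1+ and 6.09 and 6.78 on the CD31+ arrays. Cyp24a1 lay below the 40th percentile on every BP1+ array, so its difference is at the floor.

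**Figure D5:**
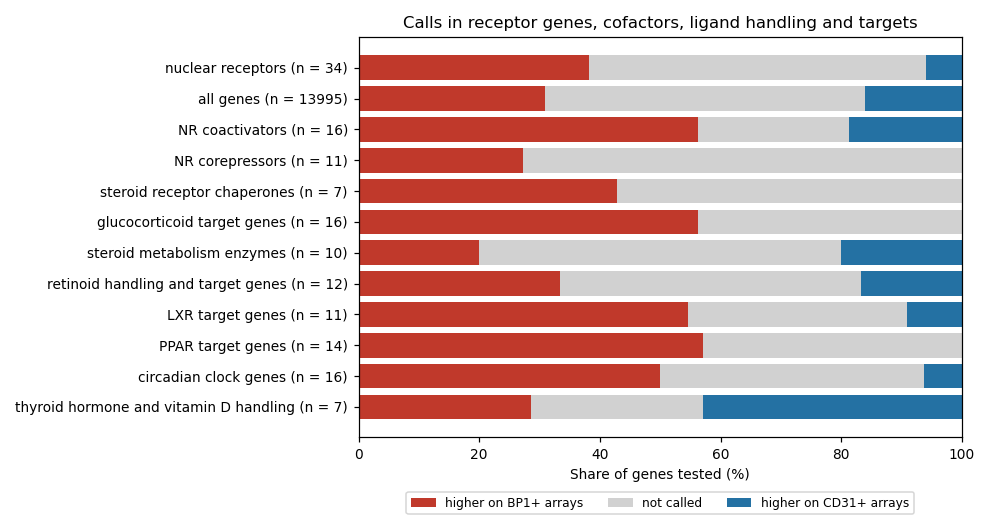
Share of tested genes (%) called higher on the BP1+ arrays (red), not called (grey) and called higher on the CD31+ arrays (blue), for all genes, the receptor genes and the 10 lists, with the number tested in parentheses. The red share is 30.9% for all genes, 38.2% for the receptors and 57.1% for the PPAR targets.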

How the data were processed

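Per the submitters' processing notes, the deposited log2 values are RMA values that the authors obtained in Affymetrix Expression Console 1.1; RMA includes background correction and quantile normalization. Which arrays were normalized together is not given in the sources used here. The platform is the Affymetrix Mouse Genome 430 2.0 array. No detection calls were used and no values were left out.

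Of 45101 probe sets, 34945 had 1 symbol in the platform annotation, 932 several, 9160 none and 64 were controls. For each of 18193 genes the brightest probe set on average was taken, and 13995 genes exceeded the 40th percentile of 3 or more arrays and were tested. The model was fitted in R 4.3.3 with limma 3.58.1 (lmFit, then eBayes) and group as its only term, and p-values were adjusted over the 13995 genes by Benjamini-Hochberg. On simulated data the procedure recovered 29, 40, 48 and 47 of 50 genes changed by 1.5, 2, 3 and 4 on the log2 scale, and called 7 of the unchanged among 13995 genes. In that simulation few genes changed and each gene had the same normal noise in both groups. In the deposited data 47% of genes were called, and genes such as Esr1 spread more on the CD31+ arrays (SD 0.80 against 0.17). The rates may therefore not carry over.

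All receptor genes are named, and from each list up to 4 called genes in its main direction and 2 in the other whose groups did not overlap. The members and lists were chosen with earlier results of these data known. The filter (absent, or at the 60th percentile), the probe set rule (mean, no cross-hybridising suffixes, any probe set), the normalization (second quantile, cyclic loess), array weights, eBayes trend and robust estimation, the threshold (adjusted p only), blocks for replicate number and for hybridisation controls, and each array in turn were varied. In the block and leave-one-out fits the probe sets and tested genes were kept. Promoter windows came from RefSeq (GRCm38.p6), with an entry for 41 of the 44 genes.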

Additional observations from a re-analysis of the deposited data

Results flagged for a closer look

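Of 84 genes examined, 5 had 1 BP1+ array far from the other 3, by Dixon's criterion on the gap to the nearest array, and chance gives about 1 in 20 such groups. None is a receptor gene. Ppbp lay at 10.19 on BP1+ array 4, with the nearest array at 4.30. Icam1 lay at 11.02 on BP1+ array 4, with the nearest at 10.35. Klf9 lay at 13.59 on BP1+ array 4, with the nearest at 13.93. Ctbp2 lay at 8.86 on BP1+ array 1, with the nearest at 8.62, and Cxcl12 at 14.82 on BP1+ array 1, with the nearest at 14.71.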

How the results depend on the processing

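Of 600 alternative values of the 34 tested receptor genes, 550 kept their direction and side of the threshold, 15 lost the call, 26 gained one and 9 turned direction. Of the 15 called genes, 6 kept the call in every alternative run (Thra, Rora, Nr2c1, Esr1, Nr3c1 and Nr3c2) and 0 turned direction. The values that turned were those of Nr1h3 with the hybridisation-control block (-0.34), Esrra with second quantile normalization (-0.22) and cyclic loess (-0.25), Nr4a1 with the same (-0.43 and -0.49) and over the fits without 1 array (-0.36 without CD31+ array 3, -0.06 without BP1+ array 1, up to 0.77), Nr4a2 with the hybridisation-control block (1.35) and Nr4a3 without BP1+ array 1 (0.026, in a range from -0.49). The cause was not tested. Second quantile normalization moved the median of all genes from 0.19 to -0.12 and cyclic loess to -0.03, and the share of calls toward the BP1+ arrays from 65.7% to 52% and 57.8%. Receptor calls were then 10 and 5, and 11 and 2. Receptor genes called toward the CD31+ arrays, 2 in the report, were 5 without a filter, 1 with the filter at the 60th percentile, 11 with adjusted p alone (4412 of all genes) and 2 to 4 when 1 array was left out.

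Same-numbered arrays correlated at -0.00, 0.03 and 0.12, and differently numbered ones at -0.08 to 0.06. With so few arrays these values cannot show whether the number pairs them. With the replicate block the receptor calls were 13 and 3 and the calls over all genes 4176 and 2278, glucocorticoid targets called toward the CD31+ arrays were 1 and steroid enzymes 1.

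Of 456 counts 393 stayed within 1.5 times and 63 did not. Calls toward the BP1+ arrays changed as follows. Coactivators (9) were 5 with the mean of probe sets, 4 with second quantile normalization, 4 with cyclic loess and 5 to 10 with 1 array left out. Corepressors (3) were 1, 1 and, from any probe set, 5. Chaperones (3) were 1 under both normalizations, 5 with adjusted p alone and 2 to 5 with 1 array left out. PPAR targets (8) were 4, 4 and, with the hybridisation-control block, 5. Clock genes (8) were 4 under both and 5 to 8 with 1 array left out. Steroid enzymes (2) were 1 with the mean of probe sets.

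Calls toward the CD31+ arrays changed as follows. Corepressors (0) were 1 under both normalizations and from any probe set, chaperones (0) 1 from any probe set, and glucocorticoid targets (0) 0 to 1 with 1 array left out. PPAR targets (0) were 1 with second quantile normalization and with adjusted p alone. Steroid enzymes (2) were 1 with the mean of probe sets, without cross-hybridising suffixes, with array weights and with the hybridisation-control block, 4 with adjusted p alone and 1 to 2 with 1 array left out. Retinoid genes (2) were 1 at the 60th percentile and with the hybridisation-control block, 5 with adjusted p alone and 1 to 2 with 1 array left out. LXR targets (1) were 2 without a filter, under both normalizations and with adjusted p alone, 0 with the mean of probe sets, array weights and the hybridisation-control block, and 0 to 1 with 1 array left out. Clock genes (1) were 2 without a filter, without cross-hybridising suffixes, with second quantile normalization, with adjusted p alone and from any probe set, and 1 to 2 with 1 array left out. Thyroid hormone and vitamin D genes (3) were 1 with the mean of probe sets and cyclic loess and 1 to 3 with 1 array left out. Of the 50 other genes named, 33 kept their call in every alternative and 0 turned. Signals near the 40th percentile limit what can be read for dim receptor genes.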
